A study of Mus musculus with 9 samples.

Results

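The Fox and Sox genes are the mouse genes whose symbol is Fox or Sox followed by a subfamily letter (for Fox) and a number, and 63 of the 24341 genes in the count tables carried such a symbol. Of these, 44 were Fox genes, with the letters a to s, and 19 were Sox genes. They were read in RNA-seq of mouse embryonic fibroblasts (MEFs) of the C57BL/6 strain grown in DMEM with 10% FBS, with 3 samples each of the genotypes WT, Atm-/- and Sirt6-/-. Atm encodes a kinase of the DNA damage response and Sirt6 a chromatin deacetylase, and the study asked how loss of either changes the transcriptome. The labels name wildtype, Sirt6-/-, P53-/- and Atm-/-P53-/- mice as sources of MEFs without saying which cells each sample held, and no agent, embryonic age or passage was given. The methods name primary MEFs and immortalized Atm-/-; p53-/- and Sirt6-/- MEFs, the latter pair from 2 other laboratories. Genotype, origin and immortalization therefore cannot be told apart here. Nothing says that the 3 samples of a genotype came from separate embryos or cultures, and p-values then measure only the spread between these samples.

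Fox proteins bind DNA through the forkhead domain and Sox proteins through an HMG box that bends the DNA, and many members of both families open or hold enhancers for a lineage. Their combination marks where and from which germ layer a cell came: FoxA genes act in endoderm, FoxC, FoxF, FoxD and FoxS genes in mesenchyme, and SoxB genes in the neural plate and in stem cells. SoxC genes act in progenitors, SoxD and SoxE genes in cartilage and glia, and SoxF genes in endothelium. Other members are used in most cells, such as FoxK and FoxP genes, the growth factor-regulated FoxO genes and Foxm1, which drives the genes of mitosis.

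Each sample held between 32187040 and 33837949 counted reads, so that 3 reads corresponded to 0.0887 to 0.0932 CPM, the count scaled to library size. Sirt6 RNA was nearly absent from the Sirt6-/- samples (4, 5 and 7 reads, against 402 to 487 in WT). Atm had 1536, 1617 and 1627 reads in WT and 3768, 3564 and 3443 in the samples labelled Atm-/-, so the RNA of the targeted gene went against that label, and Atm-/- below means the libraries labelled so. Whether the allele leaves a transcript is not given in the sources used here. Trp53 had 806 to 946 reads in the libraries labelled Atm-/-, 6563 to 7108 in WT and 9081 to 9218 in Sirt6-/-, so that Atm and p53 status cannot be told apart in this line. The 14 listed fibroblast markers summed to 28825 to 31903 CPM in WT, 9449 to 9642 in Atm-/- and 20427 to 20789 in Sirt6-/-. Of 13 tested, 9 were lower and 4 higher in Atm-/- than in WT, beside 33.6% and 34.7% of all tested genes. In Sirt6-/- 7 were lower and 6 higher, beside 37.4% and 39.2% of all tested genes. The collagen Col3a1 fell 20.5-fold in Atm-/-. Thy1 had 941, 590 and 785 reads in WT, 2874, 3200 and 2970 in Atm-/- and 1, 33 and 12 in Sirt6-/-. Lum had at most 10 reads anywhere. Prrx1 rose from 857, 774 and 832 reads in WT to 11086, 12149 and 10097 in Atm-/- and 23477, 24969 and 23348 in Sirt6-/-. Twist1 and Twist2 were also higher in both knockouts. Fn1, Col1a1 and Col1a2 had the highest CPM of the 14 in WT. Col1a2 rose in Sirt6-/-, to 255516, 244162 and 267688 reads from 161132, 128136 and 158773. The part of the lower sums in the results below was not tested. Among the markers of endothelium and blood, Tie1 and Cd3e had 0 reads in every sample and Pecam1 and Ptprc at most 10. The endothelial markers Kdr and Egfl7 were read, however. Kdr had 98, 135 and 86 reads in WT, 422, 386 and 330 in Atm-/- and 6, 4 and 12 in Sirt6-/-. Egfl7 had 127 to 196 reads in every sample. The listed blood genes summed to 11.2 to 12.5 CPM in WT and 3.97 to 5.07 in the knockouts.

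The deposited RPKM, which correct for gene length and depth, were used to compare levels between genes. Of the 63 genes, 20 had a mean of at least 1 RPKM in all 3 genotypes, 10 in only 1 or 2 of them and 33 in none. Foxm1 had the highest level of either family in each genotype, with 40.1 ± 1.6 RPKM (SD, n = 3) in WT, 52.3 ± 1.2 in Atm-/- and 31.8 ± 0.90 in Sirt6-/-. In WT it was followed by Foxp4, at 28.7 ± 0.17 RPKM, and Sox12, at 20.6 ± 0.58. In Atm-/- the next were Foxp4, at 29.1 ± 0.32 RPKM, and Sox4, at 27.6 ± 0.71, which did not differ from Foxk2, at 26.4 ± 1.6, beyond their SD. In Sirt6-/- they were Foxk2, at 24.1 ± 0.56 RPKM, Foxp4, at 22.8 ± 1.1, and Foxp1, at 22.0 ± 1.3, and the SD of neighbours in this order overlapped. The genes that reached 1 RPKM in some lines only differed between the lines. Sox8 passed it in WT alone, Foxa2 and Sox2 in Atm-/- alone, Foxa1 and Sox5 in Sirt6-/- alone and Foxo6 in WT and Atm-/-. Foxs1 passed it in WT and Sirt6-/-, and Foxc2 and Sox11 in both knockouts but not in WT. Together the 63 genes took 0.0999 to 0.105% of the reads in WT, 0.131 to 0.134% in Atm-/- and 0.118 to 0.120% in Sirt6-/-.

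**Figure D1:**
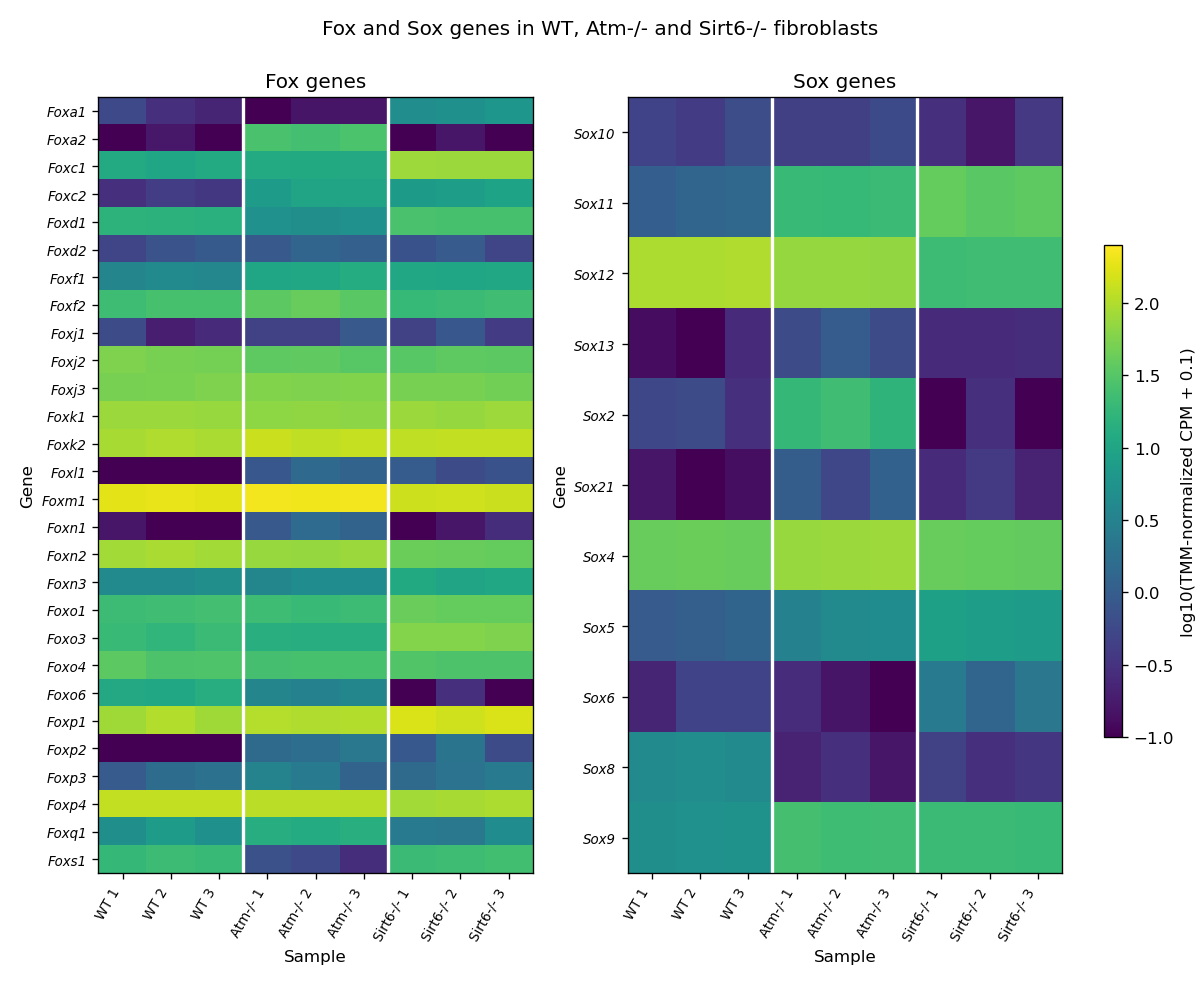
Level of 39 of the 40 Fox and Sox genes tested in at least 1 comparison (rows) in each of the 9 samples (columns; white lines part the genotypes); colour gives log10(CPM + 0.1) after TMM normalization, yellow high and dark blue low. Foxm1 is bright in all 9 columns, Foxa2 and Sox2 are bright in the 3 Atm-/- columns only, and Foxs1 is dark there only.

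With edgeR's quasi-likelihood test on the counts (Benjamini-Hochberg adjusted p under 0.05 over all genes tested), 38 of the 63 genes had enough reads to be tested between Atm-/- and WT. Of these 38, 19 were higher in Atm-/-, 11 lower and 8 not called. Of all 13283 tested genes, 34.7% were called higher and 33.6% lower. Changes of at least 2-fold were found for 14 of the 38 upward and 4 downward, where 22.5% of all genes changed that much in either direction. Between Sirt6-/- and WT, 34 genes were tested, and 17 were higher, 8 lower and 9 not called, against 39.2% and 37.4% of all 13206 genes. At least 2-fold changes were seen for 13 upward and 4 downward, with 29.3% of all genes in either direction. In the direct comparison of the knockouts 39 genes were tested, of which 15 were higher in Atm-/-, 12 lower and 12 not called, against 38.0% and 37.8% of all 13460 genes. By at least 2-fold 9 were higher and 8 lower, where 25.5% of all genes changed that much. The median size of the change, as absolute log2 fold change, was 0.95 for the tested Fox and Sox genes and 0.40 for all genes in Atm-/- against WT. It was 1.01 and 0.54 in Sirt6-/- against WT, and 0.94 and 0.49 between the knockouts. It was larger for Sox genes (2.72 over 10 genes in Atm-/- and 2.67 over 7 in Sirt6-/-) than for Fox genes (0.62 over 28 and 0.83 over 27). A gene at 0 or near 0 reads in WT entered only because a knockout had reads, and it could then be called only higher. These counts and medians thus describe the genes that passed the filter and not all 63. With a filter at a mean of at least 1 CPM, 14 of 30 were higher and 11 lower in Atm-/- than in WT. In Sirt6-/- 15 of 30 were then higher than in WT and 8 lower. Both comparisons with WT share its 3 samples.

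**Figure D2:**
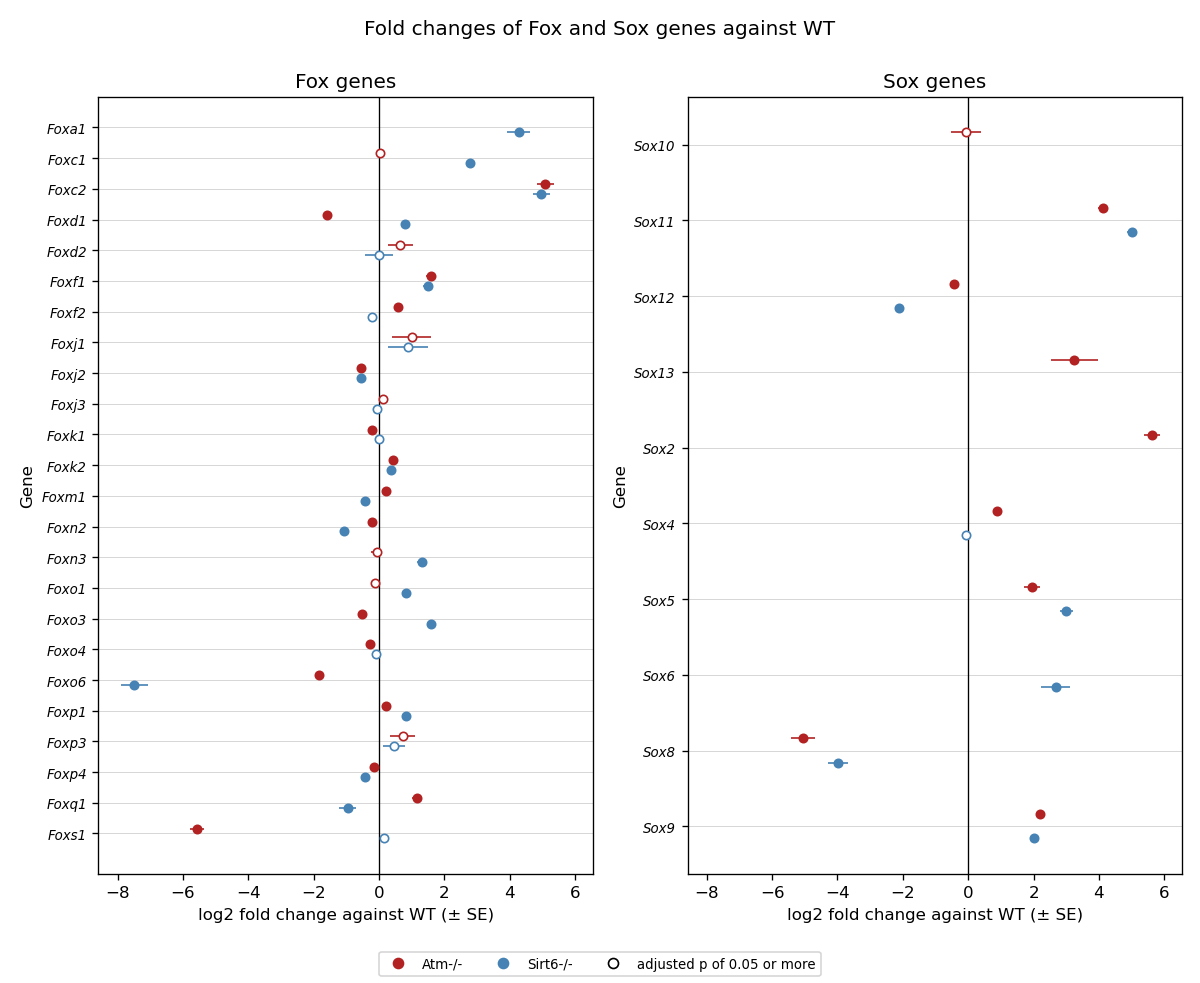
Log2 fold change (x axis, ± SE) of the Fox (left) and Sox (right) genes tested and described here in Atm-/- (red) and Sirt6-/- (blue) against WT; open symbols have an adjusted p of 0.05 or more, and Foxa2, Foxl1, Foxn1, Foxp2 and Sox21, with at most 3 reads over the WT samples, are left out. Foxc2, Sox11 and Sox9 lie right of 0 in both knockouts, Foxo6 and Sox8 left of 0 in both, and Foxd1, Foxo3 and Foxq1 on opposite sides.

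The 4 sequences below belong to genes with a large difference between lines, and they are the 250 bases before the RefSeq start of each (GRCm38.p6, 5′ to 3′ on the strand of the gene). Foxa2, Sox2 and Sox11 were low in WT, whereas Foxc1 had at least 313 reads in every sample. Foxa2 is read from chr2:148046970-148047219 (minus strand, the most upstream of its 3 starts in the table), Sox2 from chr3:34649745-34649994 (plus), Foxc1 from chr13:31806396-31806645 (plus) and Sox11 from chr12:27342719-27342968 (minus). None of the 4 windows overlaps an annotated exon except for 13 bases of Foxc1 itself. Capitals mark matches, on either strand, to the GC box GGGCGG, the CCAAT box CCAAT, the forkhead core TGTTTAC, the Sox cores ACAAAG and ACAATG and the TATA box TATAAA.
Foxa2: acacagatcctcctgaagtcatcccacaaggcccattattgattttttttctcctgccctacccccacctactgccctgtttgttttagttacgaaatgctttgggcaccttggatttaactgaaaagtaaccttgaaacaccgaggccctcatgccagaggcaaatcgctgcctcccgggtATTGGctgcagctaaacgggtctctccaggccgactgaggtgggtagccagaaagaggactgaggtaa
Sox2: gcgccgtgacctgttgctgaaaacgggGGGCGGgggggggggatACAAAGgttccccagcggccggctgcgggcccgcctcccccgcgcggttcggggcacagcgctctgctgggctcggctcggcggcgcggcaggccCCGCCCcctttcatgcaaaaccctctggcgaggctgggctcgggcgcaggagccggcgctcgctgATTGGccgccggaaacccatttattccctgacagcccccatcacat
Foxc1: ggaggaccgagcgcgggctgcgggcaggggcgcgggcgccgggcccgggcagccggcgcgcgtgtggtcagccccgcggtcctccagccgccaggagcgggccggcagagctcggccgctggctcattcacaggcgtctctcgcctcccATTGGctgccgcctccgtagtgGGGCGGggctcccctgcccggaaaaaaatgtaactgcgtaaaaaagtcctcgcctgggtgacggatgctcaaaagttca
Sox11: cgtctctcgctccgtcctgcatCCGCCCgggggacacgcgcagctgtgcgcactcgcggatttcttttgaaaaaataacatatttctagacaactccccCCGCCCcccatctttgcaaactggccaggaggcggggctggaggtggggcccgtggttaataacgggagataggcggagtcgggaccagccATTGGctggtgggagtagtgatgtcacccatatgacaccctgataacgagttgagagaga
The Foxa2 window had 50.8% G and C and 0.38 of the CpG dinucleotides its base composition predicts, and the other 3 had 58.0 to 72.0% and ratios of 0.81 to 0.93. Foxa2 thus held a CCAAT box on the minus strand and no GC box, whereas Sox2, Foxc1 and Sox11 each held both. None of the 4 held the forkhead core, the core ACAATG or the TATA box, and only Sox2 held ACAAAG. A RefSeq window was at hand for 41 of the 63 genes (51 windows, since some genes have several starts), with a median CpG ratio of 0.70 against 0.37 over all 32841 windows and a median G and C content of 60.8% against 52.4%. The GC box occurred in 60.8% of the members' windows and 32.7% of all, the CCAAT box in 45.1% and 33.9%, ACAAAG in 25.5% and 16.5%, ACAATG in 9.80% and 10.7%, the TATA box in 7.84% and 12.4%, and the forkhead core in 3.92% and 3.17%.

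Of the FoxA genes, pioneer factors of endoderm, Foxa1 and Foxa2 were each high in 1 knockout and Foxa3 in none. Foxa2 (chromosome 2, 148042877-148046969, minus strand, GRCm38) had 912, 838 and 929 reads in Atm-/-, against 0, 2 and 0 in WT and 0, 2 and 0 in Sirt6-/-. The ratio of summed reads between Atm-/- and WT, scaled for depth, was 1224 with a 95% exact binomial interval of 339 to 10116, which covers counting error only (adjusted p = 5.9e-13). Both WT reads were in WT sample 2, and the fitted log2 fold change was 10.01 with it and 12.75 without. Foxa1 (chromosome 12, 57540628-57546916, minus strand) was read in Sirt6-/- instead, 147, 162 and 202 times, against 15, 6 and 4 reads in WT and 0, 2 and 2 in Atm-/-. It was 19.4-fold higher in Sirt6-/- than in WT (log2 fold change 4.28 ± 0.35 SE, adjusted p = 3.8e-08), or 4.98 on the log2 scale without WT sample 1. It was 122-fold higher than in Atm-/- (adjusted p = 4.6e-12). Foxa3 had at most 10 reads in any sample. The Foxa2 samples of Atm-/- and the Foxa1 samples of Sirt6-/- thus lay far above every sample of the other lines. Of the 14 listed partners and targets of FoxA in endoderm, Hnf4a, Ttr, Pdx1, Nkx2-1 and Shh had 0 reads in all 9 samples, and only Gata4, Gata6 and Hhex were tested. Gata4, a zinc finger factor of endoderm and heart, had 1121 to 1320 reads in WT, 1233 to 1408 in Atm-/- and 3, 2 and 7 in Sirt6-/-, and Gata6 fell in both knockouts, to 942 to 1058 and 388 to 433 reads from 3788 to 4397. The summed level of the endoderm list was 163 to 188 CPM in WT, 69.3 to 76.0 in Atm-/- and 15.2 to 16.0 in Sirt6-/-. The 12 listed epithelial genes summed to 26.9 to 31.6 CPM in WT, 92.6 to 99.7 in Atm-/- and 24.0 to 27.6 in Sirt6-/-, with the keratin Krt19 at 1461 to 1706 reads in Atm-/- and 59 to 77 in WT. Of 10 tested, 3 were higher, beside 34.7% of all genes, and 7 not called in Atm-/-, with a median log2 fold change of 0.12. Krt19 and Krt18 (891 to 1044 reads, against 198 to 268) carried most of the sum. The part of such cells in the Foxa2 level was not tested, and in bulk RNA more cells of a type and more RNA per cell cannot be told apart.

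The SoxB gene Sox2 was likewise high in Atm-/- alone. Sox2 (chromosome 3, 34650405-34652461, plus strand), a factor of neural progenitors and pluripotent cells, had 638, 783 and 546 reads in Atm-/-, 14, 16 and 6 in WT and 0, 6 and 0 in Sirt6-/-. Its level in Atm-/- was 49.1-fold that of WT (5.62 ± 0.24 on the log2 scale, adjusted p = 3.2e-11) and 294-fold that of Sirt6-/- (8.201 on the log2 scale, adjusted p = 5.0e-15). The latter rests on the 6 reads of Sirt6-/- sample 2, without which the fitted value was 12.33. It was too low for a test between Sirt6-/- and WT. Sox2 lies within Sox2ot on the same strand, and Sox2ot had 3, 2 and 6 reads in Atm-/- and 0 in the other 6 samples. Sox21, a SoxB2 gene of the same neural fields, also rose in Atm-/-, from 2, 0 and 1 reads in WT to 31, 15 and 35 (adjusted p = 9.3e-05), with 5, 9 and 4 in Sirt6-/-. The SoxB genes Sox1, Sox3 and Sox14 had 0 reads in every sample. Pou5f1, the partner of Sox2 in pluripotent cells, and Zfp42, Esrrb, Sall4, Fgf4 and Dppa4 were at 0 reads in all 9 samples too, and the 12 listed pluripotency genes summed to 2.91 to 4.22 CPM in Atm-/- and 2.35 to 3.96 in WT. Of the 3 that could be tested in Atm-/- against WT, 1 was higher and 2 lower, beside 34.7% and 33.6% of all genes. Lefty1, a Nodal antagonist, rose to 58, 100 and 105 reads from 0 in WT (adjusted p = 5.4e-07), and Lin28a fell, to 2, 2 and 2 reads from 41, 40 and 30 (adjusted p = 4.2e-06). Nanog had reads in all 9 samples and fell in Atm-/-, from 62, 84 and 44 to 40, 20 and 36 (2.17-fold lower, adjusted p = 0.012).

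The FoxC and FoxF genes stand in a pair of clusters with Foxl1 and Foxq1. Foxf1, Foxc2 and Foxl1 lie within 46.3 kb of chromosome 8 (121084386-121130644), all on the plus strand. All 3 were higher in both knockouts, beside 34.7% of all genes called higher in Atm-/- and 39.2% in Sirt6-/-. Foxl1, at 0 reads in WT, entered the tests only through the knockouts and could be called only higher. The annotated gene Gm20388 overlaps all 3 on the same strand. Foxf1, a Hedgehog-responsive gene of visceral mesenchyme, had 109, 125 and 115 reads in WT, 353, 375 and 427 in Atm-/- and 348, 323 and 346 in Sirt6-/-, or 3.01-fold (log2 fold change 1.59 ± 0.15 SE, adjusted p = 2.0e-07) and 2.81-fold (1.49 ± 0.14, adjusted p = 2.0e-07) above WT. Foxc2, which acts in paraxial mesoderm and lymphatic vessels, had 6, 10 and 8 reads in WT, 256, 331 and 322 in Atm-/- and 229, 254 and 306 in Sirt6-/-, or 33.96-fold (5.09 ± 0.25, adjusted p = 2.2e-10) and 31.2-fold (4.96 ± 0.26, adjusted p = 2.7e-10) more. Foxl1, a gene of the gut mesenchyme, had 0 reads in each WT sample, 26, 47 and 37 in Atm-/- and 29, 17 and 21 in Sirt6-/-. Against a floor of 3 reads per WT library it was at least 11.2-fold and at least 7.17-fold higher (adjusted p = 1.0e-05 and 4.0e-05). None of the 3 genes was called between the knockouts, where the log2 differences of Atm-/- minus Sirt6-/- were 0.12 ± 0.12 for Foxf1, 0.14 ± 0.14 for Foxc2 and 0.64 ± 0.38 for Foxl1. Fendrr, a non-coding RNA that starts 1.28 kb from Foxf1 on the other strand, had 10, 7 and 8 reads in WT, 52, 69 and 64 in Atm-/- (adjusted p = 1.2e-05) and 16, 15 and 26 in Sirt6-/- (adjusted p = 0.043).

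The cluster of chromosome 13 (31556134-31812476, 256 kb, all on the plus strand) did not move together. Foxc1, the paralogue of Foxc2, had 377, 313 and 379 reads in WT, 409, 402 and 379 in Atm-/- and 2605, 2506 and 2593 in Sirt6-/-. It was 6.95-fold above WT in Sirt6-/- (log2 fold change 2.80 ± 0.08 SE, adjusted p = 1.6e-13) and not called in Atm-/- (0.02 ± 0.11, adjusted p = 0.90). Foxq1, at the other end of the cluster and a gene of epithelia and hair follicles, had 155, 234 and 157 reads in WT, rose to 445, 433 and 460 in Atm-/- (2.23-fold, adjusted p = 1.4e-05) and fell to 76, 72 and 145 in Sirt6-/- (1.94-fold lower, adjusted p = 0.0040). Foxf2, the paralogue of Foxf1, had 691, 794 and 799 reads in WT, 1225, 1435 and 1127 in Atm-/- (1.51-fold, adjusted p = 5.2e-05) and 614, 668 and 765 in Sirt6-/-, where the change of -0.21 ± 0.10 on the log2 scale had an adjusted p of 0.059. That value lay between 0.015 and 0.26 over 15 alternative analyses, 5 of which called Foxf2 lower in Sirt6-/-. In the direct test Foxc1 was 6.79-fold lower (adjusted p = 4.5e-19), Foxq1 4.36-fold higher (adjusted p = 1.5e-09) and Foxf2 1.76-fold higher (adjusted p = 4.0e-08) in Atm-/- than in Sirt6-/-.

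**Figure D3:**
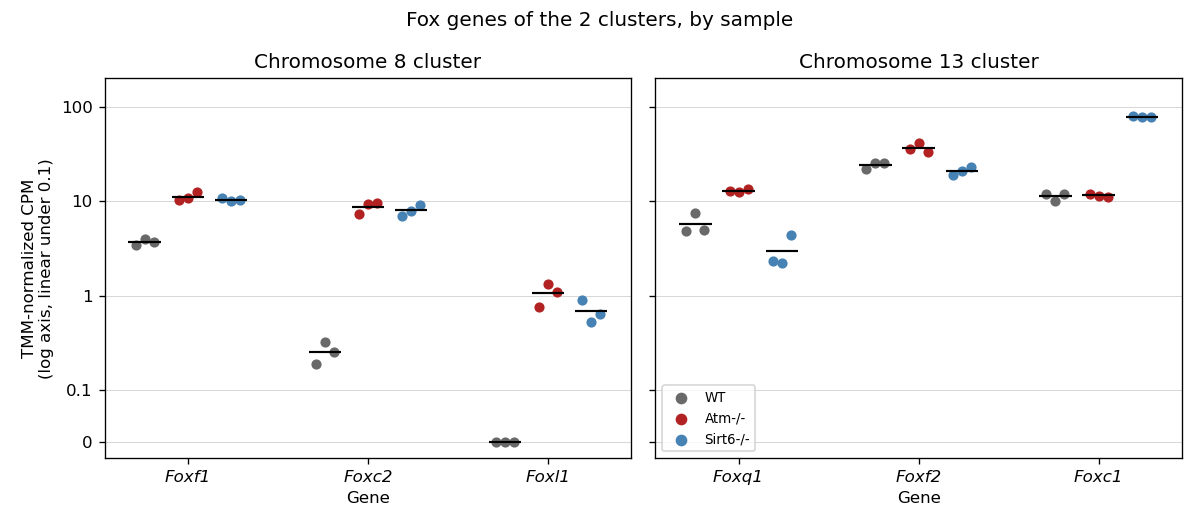
TMM-normalized CPM (log axis, linear under 0.1) of the Fox genes of the chromosome 8 cluster (left) and the chromosome 13 cluster (right), in the order of their positions; points are the 3 samples of WT (grey), Atm-/- (red) and Sirt6-/- (blue) and lines their means. On the left both knockouts lie above WT for all 3 genes, and on the right Foxc1 is high in Sirt6-/- only while Foxq1 is lowest there.

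Several other developmental Fox genes changed by a wide margin. Foxs1, known from pericytes and the neural crest, was nearly lost in one line: it had 588, 676 and 614 reads in WT and 680, 717 and 781 in Sirt6-/-, but 21, 16 and 6 in Atm-/-. That was 47.6-fold below WT (-5.57 ± 0.22, adjusted p = 2.1e-11) and 52.7-fold below Sirt6-/- (adjusted p = 3.1e-16), whereas Sirt6-/- and WT were not called different (0.16 ± 0.09, adjusted p = 0.12). Foxd1, a marker of stromal progenitors of the kidney, had 505, 469 and 449 reads in WT, fell to 179, 166 and 176 in Atm-/- (log2 fold change -1.59 ± 0.12 SE, adjusted p = 2.3e-08) and rose to 851, 818 and 863 in Sirt6-/- (1.72-fold, adjusted p = 8.2e-07). No 2 genotypes overlapped for Foxd1, and the knockouts differed 5.09-fold (adjusted p = 1.1e-14). Foxn1, the nude gene of thymus and hair, rose in Atm-/-, with 27, 50 and 38 reads there, 2, 0 and 0 in WT and 0, 2 and 6 in Sirt6-/- (adjusted p = 1.3e-05 against WT). Foxp2, a gene of the nervous system and lung, had 0 reads in every WT sample, 49, 56 and 74 in Atm-/- and 25, 62 and 17 in Sirt6-/-, at least 18.2-fold and at least 11.2-fold higher against the floor of 3 reads per WT library (adjusted p = 1.3e-06 and 6.3e-05). Its fitted log2 fold change in Sirt6-/-, 8.10, was 7.37 without Sirt6-/- sample 2.

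Foxn2, Foxn3, Foxp1, Foxp4 and Foxk2, which many cell types use, had reads in all 9 samples. Foxn3, a checkpoint-linked repressor, had 127, 130 and 149 reads in WT, 121, 154 and 148 in Atm-/- and 372, 309 and 365 in Sirt6-/-, a 2.48-fold rise in Sirt6-/- (log2 fold change 1.31 ± 0.14 SE, adjusted p = 9.6e-07), and it was not called in Atm-/- (-0.08 ± 0.18, adjusted p = 0.71). Foxn2 went down instead, from 2702, 2889 and 2638 reads in WT to 1408, 1330 and 1317 in Sirt6-/- (2.11-fold lower, adjusted p = 7.3e-10) and to 2560, 2559 and 2610 in Atm-/- (-0.23 ± 0.06, adjusted p = 0.0023), where the call was lost when read totals alone set the scale (-0.06, adjusted p = 0.32). Foxp1 rose 1.76-fold in Sirt6-/- (2604, 3138 and 2564 reads in WT, 5203, 4659 and 5338 in Sirt6-/-, adjusted p = 1.3e-07). In Atm-/-, with 3634, 3436 and 3477 reads, the rise of Foxp1 was 0.21 ± 0.07 (adjusted p = 0.021), and the adjusted p was 0.085 and 0.10 without WT sample 1 or 3 and 0.072 and 0.051 without Atm-/- sample 1 or 3. Foxp4 fell 1.34-fold in Sirt6-/- (3888, 3831 and 3796 reads in WT, 2804, 2924 and 3199 in Sirt6-/-, adjusted p = 3.5e-06). The difference of Foxp4 in Atm-/-, -0.14 ± 0.04 (adjusted p = 0.011), had an adjusted p of 0.055 without Atm-/- sample 3 and was 0.02 with read totals as the scale. Foxk2, which with Foxk1 represses autophagy genes, rose 1.34-fold in Atm-/- (2875, 3063 and 2930 reads in WT, 4685, 4200 and 4221 in Atm-/-, adjusted p = 9.8e-06) and 1.29-fold in Sirt6-/- (3850, 4015 and 4028, adjusted p = 1.0e-05).

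FoxO factors are held in the cytoplasm by insulin and AKT signalling and in the nucleus switch on genes of stress resistance, growth arrest and autophagy. Foxo3 had 636, 535 and 650 reads in WT, 485, 458 and 437 in Atm-/- and 1886, 1875 and 1867 in Sirt6-/-. It rose 2.98-fold in Sirt6-/- (log2 fold change 1.58 ± 0.08 SE, adjusted p = 1.1e-10) and fell 1.45-fold in Atm-/- (-0.54 ± 0.10, adjusted p = 2.9e-04), and the knockouts differed 4.28-fold (adjusted p = 1.5e-16). Foxo1 rose 1.78-fold in Sirt6-/-, from 685, 704 and 760 reads to 1376, 1291 and 1307 (adjusted p = 9.9e-08), and was not called in Atm-/-, with 765, 676 and 725 reads (-0.13 ± 0.09, adjusted p = 0.22). Foxo6, which is enriched in brain, fell in both knockouts: it had 352, 338 and 415 reads in WT, 118, 105 and 120 in Atm-/- and 0, 6 and 0 in Sirt6-/-. It was 3.54-fold lower than WT in Atm-/- (-1.82 ± 0.15, adjusted p = 4.8e-08) and lower still in Sirt6-/- (-7.49 ± 0.41, adjusted p = 3.7e-10). The latter value rests on the 6 reads of Sirt6-/- sample 2 and was -11.55 without it. Foxo4 had 1101, 892 and 902 reads in WT, 869, 902 and 864 in Atm-/- and 963, 900 and 931 in Sirt6-/-. It was called lower in Atm-/- (-0.27 ± 0.09, adjusted p = 0.012) but not without WT sample 1 (adjusted p = 0.081) or with read totals as the scale (adjusted p = 0.28). By RPKM Foxo4 was the highest FoxO gene of WT, at 9.11, and of Atm-/-, at 8.45, and Foxo3 that of Sirt6-/-, at 19.9.

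Of 20 listed FoxO target genes, 19 were tested in Sirt6-/- against WT, and 13 were higher, 4 lower and 2 not called, beside 39.2% of all genes called higher there. Their median log2 fold change was 1.02. The largest rise was in Pink1, a mitophagy kinase, with 163, 133 and 155 reads in WT and 767, 778 and 892 in Sirt6-/- (5.20-fold). Bnip3, another mitophagy gene, rose 5.05-fold, from 540, 504 and 572 reads to 2456, 3108 and 2906. The cell cycle inhibitor Ccng2 rose 4.72-fold, from 392, 348 and 341 reads to 1652, 1748 and 1895. Irs2, the insulin receptor substrate, fell 4.49-fold. In Atm-/- 18 targets were tested and 5 were higher, 8 lower and 5 not called, with a median of -0.11, beside 34.7% and 33.6% of all genes called higher and lower. In the direct comparison 16 of 18 were lower in Atm-/- than in Sirt6-/-, 1 was higher and 1 not called, beside 37.8% of all genes called lower. Several listed targets (Sesn1, Gadd45a, Trp53inp1) are also known p53 targets, and Trp53 RNA differed between the lines as given above; its part was not tested. Of 16 listed genes of the PI3K and AKT pathway, 5 were higher and 7 lower in Sirt6-/- (39.2% and 37.4% of all genes) and 3 higher and 8 lower in Atm-/- (34.7% and 33.6%). Sgk1, a kinase that phosphorylates FoxO3, was among those higher in both (755, 856 and 740 reads in WT, 9082, 10625 and 9551 in Atm-/-, 7971, 8282 and 8111 in Sirt6-/-). RNA levels do not show where the FoxO proteins were.

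Foxm1 and most of its listed targets were higher in Atm-/- than in Sirt6-/-. Foxm1 had 5802, 6076 and 5692 reads in WT, 7673, 7407 and 7419 in Atm-/- and 4463, 4613 and 4525 in Sirt6-/-. It was 1.16-fold higher in Atm-/- (log2 fold change 0.22 ± 0.05 SE, adjusted p = 6.8e-04), 1.34-fold lower in Sirt6-/- (-0.42 ± 0.05, adjusted p = 1.4e-06) and 1.58-fold higher in Atm-/- than in Sirt6-/- (adjusted p = 6.9e-12). All 16 listed FoxM1 targets were tested, and 12 were higher, 1 lower and 3 not called in Atm-/- against Sirt6-/-, beside 38.0% of all genes called higher. Against WT 8 were higher and 3 lower in Atm-/-, or 12 and 2 with read totals as the scale, and 2 were higher and 10 lower in Sirt6-/-, or 2 and 7. With TMM factors 34.7% of all genes were called higher and 33.6% lower in Atm-/-, and 39.2% and 37.4% in Sirt6-/-. The changes were small, with none at 2-fold: Ccnb1, the mitotic cyclin, was 1.71-fold higher and the kinesin Kif20a 1.52-fold higher in Atm-/-, and in Sirt6-/- the kinase Nek2 was 1.83-fold lower and Plk1 1.63-fold lower. Plk1 was also lower in Atm-/- (1.17-fold).

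**Figure D4:**
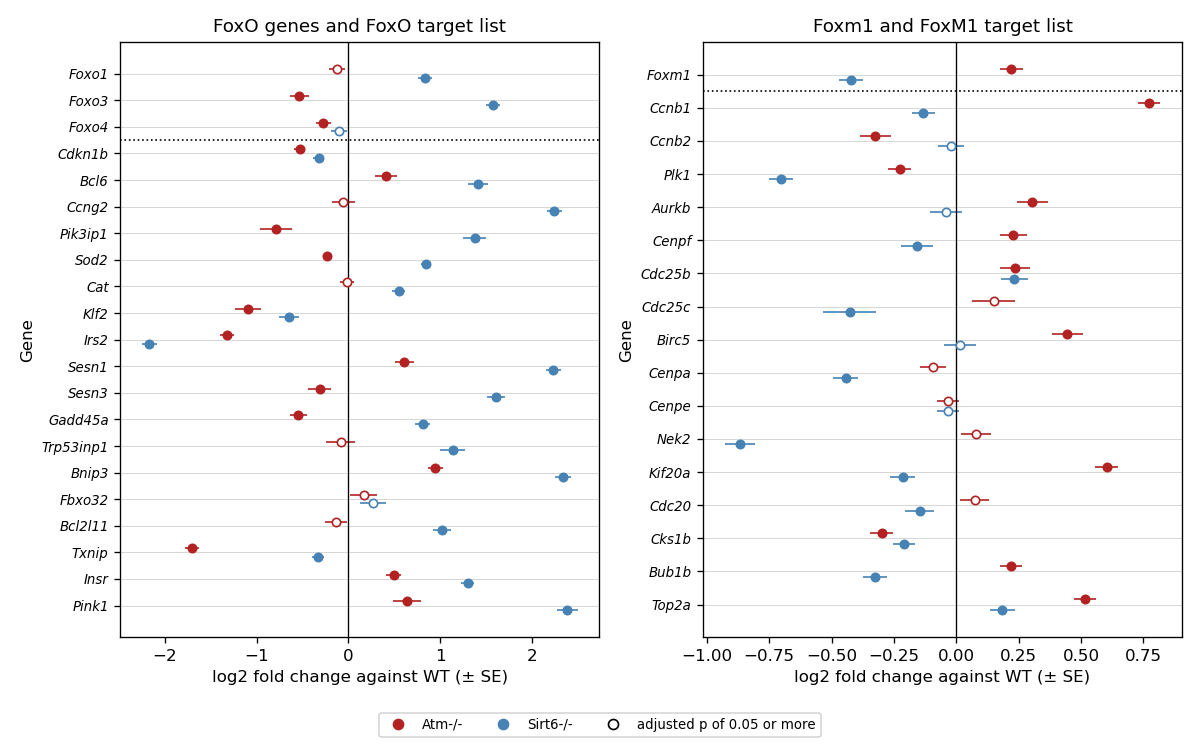
Log2 fold change against WT (x axis, ± SE) of Foxo1, Foxo3 and Foxo4 above the listed FoxO targets (left) and of Foxm1 above its listed targets (right), in Atm-/- (red) and Sirt6-/- (blue). Foxo6, which fell in both knockouts, is not drawn. Open symbols have an adjusted p of 0.05 or more and a dotted line parts factors from targets. Most blue points on the left lie right of 0, with Irs2, Klf2, Txnip and Cdkn1b left of it, and the right panel spans less than 2-fold either way.

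The SoxC genes, which act in neural and mesenchymal progenitors, moved in different directions. Sox11 (chromosome 12, 27334264-27342574, minus strand) had 30, 37 and 40 reads in WT, 697, 652 and 703 in Atm-/- and 1282, 1088 and 1205 in Sirt6-/-. It was 17.4-fold higher in Atm-/- (log2 fold change 4.12 ± 0.15 SE, adjusted p = 6.6e-12) and 32.1-fold higher in Sirt6-/- (adjusted p = 9.5e-14), and the knockouts did not overlap (1.83-fold, adjusted p = 2.9e-09). Sox4 had 1290, 1359 and 1278 reads in WT and 1323, 1275 and 1289 in Sirt6-/- (-0.07 ± 0.07, adjusted p = 0.35), but 2618, 2710 and 2699 in Atm-/- (1.86-fold, adjusted p = 4.6e-09). Sox12 fell in both, from 3014, 3009 and 3134 reads to 2493, 2583 and 2404 in Atm-/- (1.35-fold lower, adjusted p = 3.1e-06) and to 705, 728 and 761 in Sirt6-/- (4.33-fold lower, adjusted p = 2.0e-13). By RPKM the leading SoxC gene was Sox12 in WT, at 20.6, and Sox4 in both knockouts, at 27.6 and 13.4, where Sox11 was at 2.46 and 4.31.

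The SoxE gene Sox9 and the SoxD genes Sox5 and Sox6 form the trio that drives cartilage genes. Sox9 (chromosome 11, 112782224-112787760, plus strand) had 152, 160 and 165 reads in WT, 852, 759 and 778 in Atm-/- and 675, 673 and 666 in Sirt6-/-, or 4.55-fold (log2 fold change 2.19 ± 0.11 SE, adjusted p = 2.1e-10) and 4.07-fold more (2.02 ± 0.11, adjusted p = 2.8e-10). The knockouts did not overlap in reads for Sox9, and their difference of 0.18 ± 0.08 had an adjusted p of 0.053, between 0.012 and 0.20 over 15 alternative analyses. Sox5 had 27, 30 and 36 reads in WT, 106, 142 and 147 in Atm-/- (3.85-fold, adjusted p = 8.0e-06) and 280, 249 and 247 in Sirt6-/- (8.02-fold, adjusted p = 3.6e-09). Sox6 had 4, 12 and 12 reads in WT, 6, 2 and 0 in Atm-/- and 77, 39 and 72 in Sirt6-/-, 6.39-fold above WT (adjusted p = 7.2e-05). All 3 genes of the trio were thus above WT in Sirt6-/-, and Sox9 and Sox5 in Atm-/-, beside 39.2% and 34.7% of all genes called higher. Sox13, the remaining SoxD gene, had 18, 31 and 17 reads in Atm-/-, 1, 0 and 5 in WT and 5, 5 and 6 in Sirt6-/- (adjusted p = 0.0011 for Atm-/- against WT). Sox8, the SoxE paralogue of Sox9, fell in both knockouts, from 132, 144 and 128 reads to 4, 7 and 2 in Atm-/- (33.2-fold lower, adjusted p = 1.1e-08) and to 12, 6 and 8 in Sirt6-/- (15.9-fold lower, adjusted p = 2.2e-08). Sox10, the glial SoxE gene, had 2 to 17 reads in each sample and was not called in the tests it entered. Of the 13 listed genes of glia and melanocytes, targets of Sox10, 9 were tested in Atm-/- against WT. Of these 4 were higher, 3 lower and 2 not called, beside 34.7% and 33.6% of all genes called higher and lower. The 13 summed to 63.3 to 81.3 CPM in WT, 28.6 to 29.9 in Atm-/- and 11.5 to 13.3 in Sirt6-/-. Most of the WT sum was the myelin gene Mbp, with 1765 to 2314, 450 to 561 and 24 to 44 reads. The melanocyte factor Mitf rose instead, from 23, 26 and 29 reads in WT to 183, 253 and 152 in Atm-/-. Several annotated antisense genes lie within Sox5, and the one in the tables, Sox5os3, had at most 11 reads. Whether reads were counted by strand is not given in the sources used here.

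Of the 15 listed cartilage genes 13 were in the tables, and their summed level was 13.01 to 14.5 CPM in WT, 87.6 to 106 in Atm-/- and 369 to 452 in Sirt6-/-. A different gene carried the rise in each line. Col2a1, the cartilage collagen, rose in Sirt6-/- from 20, 6 and 14 reads in WT to 9082, 7914 and 9890 (641-fold, adjusted p = 3.8e-16), with 24, 27 and 31 in Atm-/- (adjusted p = 0.090). Acan, the cartilage proteoglycan, had 2146, 1706 and 2059 reads in Atm-/-, 54, 42 and 62 in Sirt6-/- and 0, 2 and 3 in WT, and it was 35.6-fold higher in Atm-/- than in Sirt6-/- (adjusted p = 9.7e-19). Col11a1 rose in both, 5.52-fold in Atm-/- and 20.4-fold in Sirt6-/-, and Matn3 fell in both, 2.13-fold and 8.07-fold. Col9a1, Matn1 and Hapln1 had at most 1 read in any sample. In all, 2 of the 6 tested cartilage genes were higher and 2 lower in Atm-/- (34.7% and 33.6% of all genes), and 3 of 7 higher and 1 lower in Sirt6-/- (39.2% and 37.4%), so the shares called higher were near those of all genes.

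**Figure D5:**
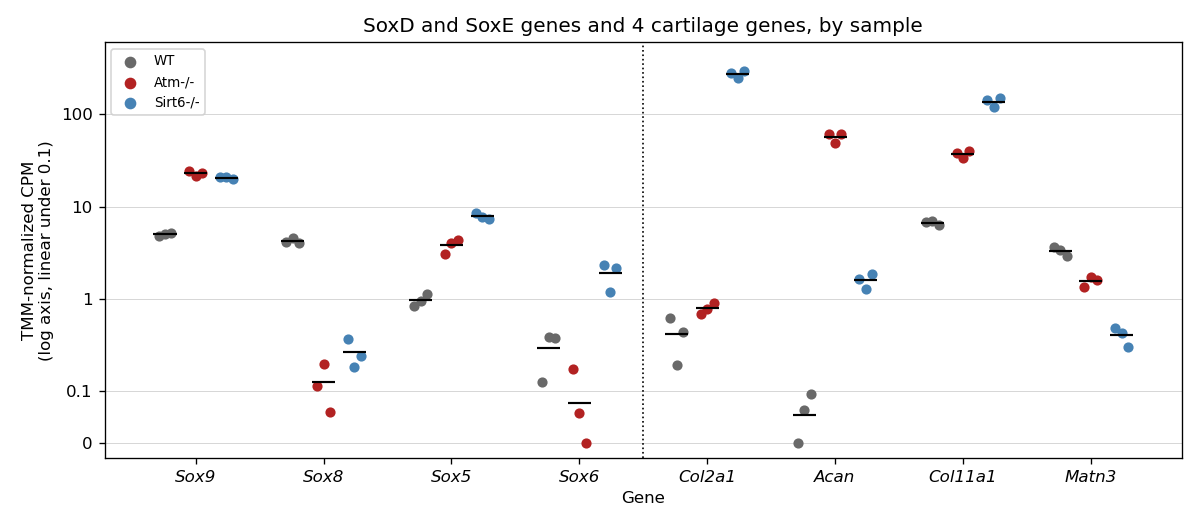
TMM-normalized CPM (log axis, linear under 0.1) of Sox9, Sox8, Sox5 and Sox6 (left of the dotted line) and of Col2a1, Acan, Col11a1 and Matn3 (right); points are the 3 samples of WT (grey), Atm-/- (red) and Sirt6-/- (blue) and lines their means. Sox9 and Sox5 lie above WT in both knockouts and Sox8 below, while Col2a1 is high in Sirt6-/- only and Acan is highest in Atm-/-.

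The remaining genes were low or changed little. Foxj2 fell in both knockouts (1733, 1589 and 1553 reads in WT, 1246, 1283 and 1112 in Atm-/-, 1065, 1172 and 1177 in Sirt6-/-, adjusted p = 5.3e-06 and 2.8e-06), and Foxk1 was lower in Atm-/- by 0.20 ± 0.05 on the log2 scale (adjusted p = 0.0033). It was not called with read totals as the scale (adjusted p = 0.53). Foxj3 was not called against WT in either line, but was with read totals as the scale in Atm-/- (0.27, adjusted p = 0.0013). Foxd2, Foxj1 and Foxp3, at 3 to 113 reads, were not called in any comparison. Without WT sample 1, however, Foxj1 was called higher in Atm-/- (1.97) and Sirt6-/- (1.84), and without Atm-/- sample 3 Foxp3 in Atm-/- (1.06). Of 15 listed genes of motile cilia, which Foxj1 drives, 12 were in the tables. They summed to 4.32 to 6.13 CPM in WT, 6.94 to 7.26 in Atm-/- and 8.10 to 9.48 in Sirt6-/-. Against WT, 2 of 4 tested were higher in Atm-/- and 2 of 3 in Sirt6-/-, beside 34.7% and 39.2% of all genes, and 0 were lower. The SoxF genes of endothelium were near 0: Sox17 had 0 reads in all 9 samples, Sox7 at most 10 and Sox18 at most 18. The 12 listed endothelial genes summed to 8.75 to 11.5 CPM in WT, 15.5 to 17.0 in Atm-/- and 5.78 to 7.89 in Sirt6-/-. Egfl7 and Kdr, given above, were the highest of them in WT. Together 15 genes had 0 reads in every sample, which allows up to 3 reads or 0.0932 CPM in a library, namely Foxb1, Foxb2, Foxd3, Foxe1, Foxe3, Foxi1, Foxi2, Foxi3, Foxn4, Foxr1, Foxr2, Sox1, Sox3, Sox14 and Sox17. The other 8 that entered no test, with at most 18 reads in a sample, were Foxa3, Foxd4, Foxh1, Foxl2, Sox7, Sox15, Sox18 and Sox30.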

How the data were processed

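The data are poly(A) RNA-seq libraries of MEFs sequenced on an Illumina HiSeq instrument. Per the file headers the authors deposited, for each sample, a read count per RefSeq gene with RPKM values and the longest transcript length; the submitters' processing notes name the build mm10, and the aligner, counter and strand setting are not given in the sources used here. The deposited RPKM equal the count scaled by that length and a read total per sample. Of genes with 1 to 20 reads, 60.3 to 62.8% had an even count; why was not tested.

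Genes whose symbol matched the family rule were taken as members. The members and all gene lists were chosen with earlier results of these data known. Samples were grouped by the labels, and each pair of genotypes was fitted alone over all genes in edgeR 4.0.16 (R 4.3.3): filterByExpr, TMM factors, glmQLFit and glmQLFTest, Benjamini-Hochberg adjustment over all tested genes, adjusted p under 0.05, and a prior count of 0.125. Errors of log2 fold changes are the fold change over the square root of its F. CPM use TMM factors over the 9 samples (0.942 to 1.05), and SD are over 3 samples. Genes were named with full statistics if called against WT at 2-fold or more with at least 5 CPM in the higher genotype, along with the 3 highest by RPKM and the FoxO, FoxM, FoxC, FoxF, SoxC, SoxD, SoxE and SoxF genes; of each list at most 4 called genes with the largest changes were named. Foxl1, Foxp1, Foxp2, Foxn1, Sox21, Foxj2, Foxk1 and Foxj3, the list genes at 0, and Sgk1, Plk1, Fendrr, Nanog, Mitf, Col3a1, Kdr, Egfl7, Prrx1, Twist1, Twist2, Fn1, Col1a1 and Col1a2 were named after their values were seen. The values of 1 gene that met this rule are not reported here; it is included in the counts.

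Intervals of read ratios are exact binomial at 95% and, like the floor of 3 reads, cover counting error only. Alternatives were DESeq2 1.42.0, its size factors in edgeR, read totals, other filters and prior counts, 1 fit of all 9 samples, a replicate block, leaving out each sample and, chosen after seeing the data, halved counts. The fitting steps were run on simulated counts with set fold changes, which checks the steps and not these results. The replicates of WT differed most for WT sample 2. Positions are from GENCODE (GRCm38), promoter windows from RefSeq (GRCm38.p6).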

Additional observations from a re-analysis of the deposited data

How the results depend on the processing

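The scale mattered most for small changes. With read totals in place of TMM factors the median log2 fold change of all genes moved from 0.02 to 0.18 in Atm-/- against WT, from 0.02 to 0.11 in Sirt6-/- against WT and from 0.00 to 0.06 between the knockouts. The genes lower in Atm-/- than in WT then numbered 7 rather than 11, and Foxn3 (0.0858), Foxo1 (0.0383), Foxp4 (0.0194) and Sox10 (0.101) in Atm-/- and Sox4 (0.0218), Foxd2 (0.0853) and Foxj3 (0.0162) in Sirt6-/- changed sign, of which only Foxp4 had been called; the cause was not tested. With a 2-fold minimum, 4 genes were lower in Atm-/- than in WT and 4 in Sirt6-/- (of 8), and 9 of 15 were higher in Atm-/- than in Sirt6-/-.

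Leaving out 1 sample at a time, Foxn3 in Atm-/- ranged from -0.127 to 0.0328 (without Atm-/- sample 1) and Foxc1 from -0.0630 (without WT sample 2) to 0.0660. None of the genes whose sign changed with a sample left out had been called. They include Sox10 in Atm-/- (-0.250 to 0.209), Foxd2 (-0.269 to 0.239) and Foxk1 (-0.0183 to 0.0433) in Sirt6-/-, and Foxj1 (-0.318 to 0.621), Foxj2 (-0.0199 to 0.0717) and Foxp3 (-0.0538 to 0.626) between the knockouts. Foxk1 in Sirt6-/-, at 0.00489, was also -0.00500 with DESeq2 size factors, -0.00386 without a filter and -0.00638 in DESeq2. With 1 sample left out, the counts of genes called higher and lower ranged from 18 to 19 and from 10 to 12 in Atm-/- against WT. They ranged from 17 to 18 and from 8 to 9 in Sirt6-/- against WT, and from 15 to 16 and at 12 between the knockouts. A filter at a mean of at least 1 CPM gave 14 and 11 in Atm-/- against WT and 13 and 12 between the knockouts. Read totals as the scale gave 17 and 12 between the knockouts. Over 1635 recomputed fold changes of all tested Fox and Sox genes, 1579 kept their sign and side of the threshold, 9 lost and 17 gained the call, and 30 changed sign.

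Samples with the same number in the labels showed no large shared variation (correlations of -0.02 to 0.03). Such correlations cannot tell whether the numbers pair the samples, and the labels do not say so. With a replicate block 19 genes were higher and 11 lower in Atm-/- than in WT, 17 and 9 in Sirt6-/-, and 15 and 12 between the knockouts; the added call was Foxf2 in Sirt6-/- (-0.21). Genes under about 10 reads per sample are limited by depth.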
